A study of Mus musculus with 8 samples.

Results

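The mitokines Gdf15 and Fgf21, hormones that cells secrete when their mitochondria are stressed, and the genes of their receptors were followed in RNA from mouse hearts. The 6 genes were taken by symbol from the deposited table, as 6 of its 55383 rows: the hormones Gdf15 and Fgf21, Gfral, Klb, Fgfr1 and Fgfr4. In the knockout hearts, labelled Ssbp1-/-, Ssbp1, which encodes the protein that coats single-stranded DNA in mitochondria, had been deleted by a Cre recombinase under the muscle creatine kinase promoter (Ckmm-cre), which acts in cardiomyocytes and skeletal muscle, so that other cells of the heart keep the gene. The control hearts, labelled Ssbp1+/+, were loxP-flanked at Ssbp1 and lacked Cre according to the group names in the study. The labels give the Cre cross as the source of every sample without saying which animals inherited Cre. All mice had the inbred C57BL/6N nuclear background and were about 5 weeks old. Each library came from the total RNA of 1 whole heart, with 2 knockout and 2 control hearts compared here.

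GDF15 is a distant member of the TGF-beta superfamily that circulates in the blood and reduces food intake through GFRAL, a receptor of the brainstem that signals with the kinase RET. FGF21 is an endocrine fibroblast growth factor of liver, fat and muscle. It binds the co-receptor beta-Klotho, encoded by Klb, together with an FGF receptor tyrosine kinase, mainly FGFR1, and beta-Klotho also serves FGF15 with FGFR4 in the liver. Both hormone genes are known targets of the integrated stress response, in which the transcription factors ATF4 and CHOP bind C/EBP-ATF composite elements in the DNA.

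The promoters of the hormone genes are shown because both genes had their highest reads in the same libraries. The 250 bases before each start site, taken from RefSeq on GRCm38.p6 and written 5′ to 3′ along the gene's own strand, lie on the minus strand at chr8:70632457-70632706 for Gdf15 and chr7:45615491-45615740 for Fgf21. Capitals mark a match to TGATGNAA, the C/EBP-ATF composite element, read on either strand (TTNCATCA on the other).
Gdf15: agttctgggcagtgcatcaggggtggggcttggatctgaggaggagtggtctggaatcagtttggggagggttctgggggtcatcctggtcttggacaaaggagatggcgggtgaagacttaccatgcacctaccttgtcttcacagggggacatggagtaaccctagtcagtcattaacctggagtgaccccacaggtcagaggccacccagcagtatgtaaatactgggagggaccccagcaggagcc
Fgf21: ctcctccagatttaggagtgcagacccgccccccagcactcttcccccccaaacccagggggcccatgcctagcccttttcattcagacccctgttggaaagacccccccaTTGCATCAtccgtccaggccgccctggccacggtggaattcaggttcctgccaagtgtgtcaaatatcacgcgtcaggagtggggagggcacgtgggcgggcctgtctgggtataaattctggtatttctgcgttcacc

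The Fgf21 window held 1 match, on the opposite strand, starting 139 bases before the start site. Neither of the 2 windows of Gdf15 held one, nor did those of Klb, Gfral and Fgfr4. The element occurred in 1134 of 32851 windows of this length (3.45%), and TGACGTCA, the cAMP response element, in 508 (1.55%), with no match in the windows of these 5 genes. A match describes the letters only. RefSeq windows were matched for 5 of the 6 genes, all but Fgfr1.

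Depth was 25558246 and 25682093 reads in knockouts, against 24067849 and 19716305 in controls. Mitochondrial genes took 58.0% and 56.2% of them in knockouts and 62.7% and 66.7% in controls, which left 10734547 and 11259234 reads on nuclear genes in knockouts and 8981637 and 6568812 in controls. Values are normalized counts, reads divided by a size factor for each library. A count of 0 allows up to 3 reads, which is 2.47 and 2.30 normalized counts in the knockouts and 2.93 and 4.04 in the controls. Intervals on single libraries are exact 95% Poisson intervals, and those on ratios of pooled reads are exact 95% binomial intervals. Both cover counting error only, not the spread between hearts. The summed normalized counts of 8 cardiomyocyte markers were 1403395 and 1303300 in knockouts, against 1386855 and 1364280 in controls, and none of the 8 was at 0, as the heart label requires. Ssbp1 had normalized counts of 169.7 and 162.9 in knockouts and 176.9 and 215.6 in controls, which is a weak check of the labels because reads over the whole gene were counted in all cell types.

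Gdf15 (ENSMUSG00000038508.7; GRCm38 chromosome 8, 70629393 to 70632456, minus strand) had normalized counts of 54.4 and 74.2 in knockout hearts, against 0.977 and 2.69 in control hearts. Both knockouts lay far above both controls, and the controls were under the level that a count of 0 allows. In reads, the gene had 66 and 97 in the knockouts and 1 and 2 in the controls. The intervals of the knockouts (42.0 to 69.2 and 60.2 to 90.5) did not meet those of the controls (0.0247 to 5.45 and 0.326 to 9.73). The mean was 64.3 ± 14.0 in knockouts and 1.84 ± 1.21 in controls (SD, n = 2 each).

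The log2 fold change of Gdf15 was 4.58 (SE 0.57), a 23.9-fold difference on the log2(normalized count + 1) scale, and the third highest of the 14522 genes tested. By limma over all these genes with Benjamini-Hochberg adjustment it missed the threshold of 0.05 (adjusted p = 0.0856). Gdf15 passed the filter of a normalized count of at least 10 in 2 libraries only through the knockouts. It had to be high there to be tested, which limits its rank and its calls in every filtered fit. With no filter beyond a value above 0, limma gave it an adjusted p of 0.0941. The ratio of the pooled reads, scaled for library, was 38.0 with a 95% interval of 12.8 to 186, which rests on 3 reads in the controls. This interval covers counting error only, not the spread between hearts. On reads recovered from the normalized counts, edgeR gave a log2 fold change of 5.14 (adjusted p = 0.0433) and DESeq2 5.22 (adjusted p = 0.00012), so that both count models called Gdf15 higher in the knockouts. Without control replicate 1, limma also called it, at a log2 fold change of 4.13 (adjusted p = 0.0467). It did not call it without control replicate 2 (adjusted p = 0.0964), or without knockout replicate 1 or 2 with the genes of all 4 libraries kept (adjusted p = 0.773 and 1).

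Fgf21 (ENSMUSG00000030827.5; GRCm38 chromosome 7, 45613886 to 45615490, minus strand) had 17.3 and 19.1 normalized counts in knockouts, against 0 and 0 in controls. The reads were 21 and 25 in the knockouts, and no read was found in either control. The knockout intervals were 10.7 to 26.4 and 12.4 to 28.2, above the upper limits of 3.61 and 4.97 in the controls. The mean was 18.2 ± 1.29 in knockouts and 0 in controls (SD, n = 2 each).

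With the controls set to the 3-read floor over the group, the pooled and scaled reads of Fgf21 were 10.7-fold higher in the knockouts. This value leaves out counting error in the knockouts and the spread between hearts, so it is no strict bound. The fitted log2 fold change of Fgf21, 4.26 (SE 0.96), depends on the pseudocount and is no bound either. Fgf21, like Gdf15, passed the filter only through the knockouts. By limma Fgf21 missed the threshold (adjusted p = 0.547). edgeR did not call it (adjusted p = 0.311), DESeq2 gave it no adjusted p, and limma without a mean-variance trend did call it (adjusted p = 0.0308). In that last fit the SE was 0.13, with both controls at 0 and so without any spread. The call of Fgf21 thus changed with how the spread was estimated. Its reads did not overlap between the groups, and both knockouts lay above both controls in 18.1% of all genes tested.

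GFRAL is the receptor of GDF15. Gfral (ENSMUSG00000059383.14; GRCm38 chromosome 9, 76164102 to 76213657, minus strand) had 0 reads in both knockouts and 0 in both controls. At this depth the receptor gene was not detectable in the heart in either genotype, within the floors given above. RET, the kinase that GFRAL recruits, was transcribed: Ret had normalized counts of 121.1 and 144.6 in knockouts and 176.9 and 149.5 in controls. Both knockouts lay below both controls, by a small margin for the second of each, with a log2 fold change of -0.30 (SE 0.18, limma adjusted p = 0.862). Gfral and Ret belong to a list of 6 receptor genes of the GDNF family, of which 4 were tested and 0 were called by limma, edgeR or DESeq2. All 4 had a negative log2 fold change, with a median of -0.37, against 0.0024 over all genes, and 0 were at an unadjusted p under 0.05. Gfra2, a co-receptor for neurturin and the member with the next smallest p after Ret, had normalized counts of 18.1 and 13.0 in knockouts and 24.4 and 18.9 in controls (log2 fold change -0.46, limma adjusted p = 0.914).

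KLB makes a cell responsive to FGF21. Klb (ENSMUSG00000029195.10; GRCm38 chromosome 5, 65348314 to 65384007, plus strand) had 4 and 1 reads in knockouts and 1 and 0 in controls, or 3.30 and 0.765 normalized counts against 0.977 and 0. The groups overlapped, and only the first knockout exceeded its 3-read floor. The ratio of pooled reads was 3.50 with a 95% interval of 0.392 to 166, so no difference was detectable at this depth. Klb did not pass the filter on low values. Fitted without that filter, its log2 fold change was 0.97 (SE 0.72, limma adjusted p = 0.876).

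FGFR4 pairs with beta-Klotho in the liver. Fgfr4 (ENSMUSG00000005320.9; GRCm38 chromosome 13, 55152640 to 55168759, plus strand) had 1 and 0 reads in knockouts and 2 and 0 in controls, or 0.824 and 0 normalized counts against 1.96 and 0. All 4 values lay under the 3-read floor, so that no fold is given and the gene was not tested with the others.

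Fgf21, Klb and Fgfr4 are known to be active in hepatocytes, so the hepatocyte markers are given beside them. Summed over 8 markers they reached 2361 and 556.2 normalized counts in knockouts, against 4246 and 13.5 in controls. None of the 8 was at 0 in all 4 libraries, the groups overlapped, and limma, edgeR and DESeq2 called 0 of the 7 tested (0 at an unadjusted p under 0.05 in limma), with a median log2 fold change of 1.37 although the summed level was highest in a control. That control, replicate 1, had no Fgf21 read. The part of liver RNA in the reads of Fgf21, Klb and Fgfr4 was not tested. Adipocytes also carry Klb. Of 7 adipocyte markers Cidec, Ucp1 and Lep were at 0 in all 4 libraries, and the sum was 117.8 and 120.1 in knockouts and 109.5 and 141.5 in controls. Nearly all of it was Cidea, and the other 6 summed to 1.65 and 1.53 in knockouts and 0.977 and 6.74 in controls. Skeletal muscle, a further known source of FGF21 and a tissue where Ckmm-cre acts, had marker sums over 7 genes of 2685 and 1669 in knockouts and 2819 and 4261 in controls, with Myh1 at 0 in all 4. Nearly all of this sum was Acta1, which the heart also expresses, and the other 6 summed to 14.8 and 6.89 in knockouts and 17.6 and 8.08 in controls, which overlap.

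Fgfr1 (ENSMUSG00000031565.18; GRCm38 chromosome 8, 25513654 to 25575718, plus strand) encodes the receptor kinase that FGF21 uses with beta-Klotho and that many other FGFs use without it. It had 243.8 and 289.2 normalized counts in knockouts, against 476.9 and 361.1 in controls. Both knockouts lay below both controls, and the controls differed from each other by more than the knockouts did. The mean was 266.5 ± 32.1 in knockouts and 419.0 ± 81.9 in controls (SD, n = 2 each). The log2 fold change was -0.64 (SE 0.18), a ratio of 0.641, and did not pass limma's threshold (adjusted p = 0.680) or that of edgeR (0.651) or DESeq2 (0.345). Among all genes tested, 3.89% had a lower log2 fold change. Fgfr1 overlaps the antisense gene Gm16159, which was at 0 in all libraries, and counting used strand.

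In the heart FGFR1 is carried by fibroblasts as well as by cardiomyocytes. The summed normalized counts of 5 fibroblast markers were 6870 and 7386 in knockouts and 8687 and 8195 in controls. All 5 had negative log2 fold changes, from -0.35 to -0.17 with a median of -0.25, and limma, edgeR and DESeq2 called 0 (0 at an unadjusted p under 0.05 in limma). The part of these cells in the Fgfr1 difference was not tested. In whole hearts, fewer cells of a type and less RNA per cell cannot be told apart.

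Of the 6 genes, 3 passed the filter of a normalized count of at least 10 in 2 libraries. Gdf15 and Fgf21 passed only through the knockouts, where they are high, so they had to differ to be tested, and Fgfr1 passed in every library. limma called 0 of the 3 higher in the knockouts, beside 0.0757% of all genes (11 of 14522), and 0 lower, beside 0.0413% (6). At an unadjusted p under 0.05, limma had 448 genes higher and 439 lower, among them Gdf15 and Fgf21 higher and Fgfr1 lower. edgeR called Gdf15 of the 3, beside 0.0895% of all genes called higher (13), and DESeq2 called Gdf15, beside 0.359% (44 of 12269). In Gdf15 and Fgf21 both knockouts lay above both controls, as did 18.1% of all genes, and in Fgfr1 both lay below, as did 17.5%. Non-overlap of this kind was thus common among all genes. By p, Gdf15 ranked 28, Fgf21 104 and Fgfr1 227 of 14522, and by log2 fold change Fgf21 was the fifth highest, next but one to Gdf15.

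**Figure D1:**
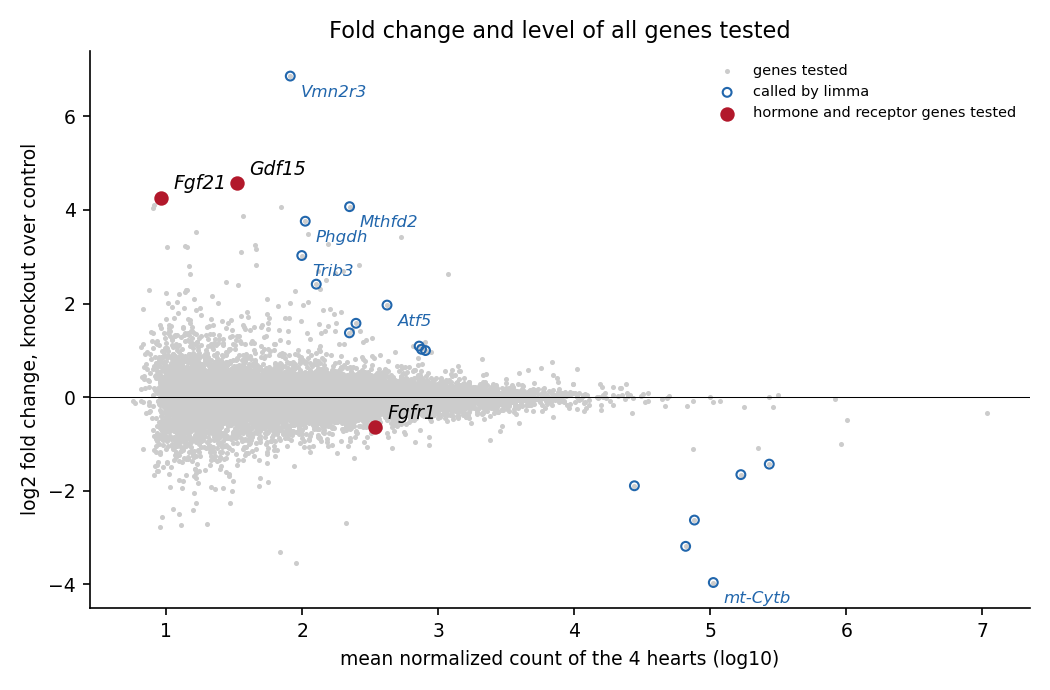
Log2 fold change of knockouts over controls (y axis) against the mean normalized count of the 4 hearts (x axis, log10) for the 14522 genes tested by limma, with called genes and the named genes marked. Gdf15 (4.58) and Fgf21 (4.26) lie near the top at low mean levels, and Fgfr1 (-0.64) lies below the middle of the cloud.

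Levels of different genes were compared as reads per kb of exon and per 1000000 nuclear reads (RPKM). The length covered all annotated exons of a gene together, which can exceed a single transcript. It was 9.88 kb for Fgfr1, 1.85 kb for Gdf15 and 0.951 kb for Fgf21, so the order of these genes depends on it. On this scale Gdf15 was at 3.32 and 4.65 RPKM in knockouts, against 0.0601 and 0.164 in controls. Fgfr1 was at 2.79 and 3.40 in knockouts and 5.50 and 4.13 in controls, and Fgf21 at 2.06 and 2.33 in knockouts and 0 in both controls. In the knockouts the order was Gdf15, Fgfr1, Fgf21, Klb, Fgfr4 and Gfral. The values of the neighbours Gdf15 and Fgfr1 overlapped between hearts, and those of Fgfr1 and Fgf21 did not. Counting error was left out of these ranges, and Fgf21 rested on 21 and 25 reads, so its place below Fgfr1 is uncertain. Klb (0.0819 and 0.0195 in knockouts, 0.0245 and 0 in controls) and Fgfr4 (0.0263 and 0 in knockouts, 0.0629 and 0 in controls) did not differ from each other beyond their spread. In both controls Fgfr1 was the highest of the 6, and each of the others was at 0.164 or below. Among protein-coding genes Gdf15 ranked 7463 and 6201 in knockouts and 14343 and 13066 in controls by this level, and Fgf21 ranked 9070 and 8796 in knockouts.

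The endocrine FGFs, the Klotho co-receptors and the FGF receptors form a list of 11 genes, of which 5 were tested and 0 called by limma, edgeR or DESeq2. Their median log2 fold change was -0.21. At an unadjusted p under 0.05 limma had only Fgf21 higher and only Fgfr1 lower, beside 448 higher and 439 lower of all 14522 genes. Of the other endocrine hormones, Fgf15 and Fgf23 had no reads in any library. Kl, the co-receptor of FGF23, had 0 and 0.765 normalized counts in knockouts and 1.96 and 0 in controls. The other receptor genes did not move together. Fgfr2 had 5.77 and 6.89 normalized counts in knockouts and 12.7 and 21.6 in controls, lower in both knockouts (log2 fold change -1.27, limma adjusted p = 0.809). Fgfr3 had 93.1 and 62.7 in knockouts and 73.3 and 57.9 in controls, which overlap. Fgfrl1, a receptor without a kinase domain, had 84.8 and 69.6 in knockouts and 77.2 and 102.4 in controls, which overlap too. Per length, Fgfr3 was at 1.47 and 1.02 RPKM in knockouts and 1.17 and 0.915 in controls and Fgfr2 at 0.0631 and 0.0774 RPKM in knockouts and 0.140 and 0.236 in controls, so that Fgfr1 was the most abundant of the receptor genes with a kinase domain in each of the 4 hearts.

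Downstream of the receptors, 0 of 18 genes for signalling mediators were called by limma, edgeR or DESeq2, and 0 had an unadjusted p under 0.05. Their median log2 fold change was 0.0082 and their range was -0.67 to 0.25. Frs2, the docking protein of FGF receptors and the member with the smallest p, had 418.5 and 443.7 normalized counts in knockouts and 377.3 and 363.7 in controls (log2 fold change 0.22, SE 0.12, limma adjusted p = 0.833). Map2k2, the gene of the kinase MEK2, had 530.5 and 460.5 in knockouts and 436.9 and 410.9 in controls (log2 fold change 0.22, limma adjusted p = 0.837). A list of transcripts known to rise with FGF and ERK signalling, and of genes that restrain it, held 17 genes, of which 16 were tested. Not every gene that restrains the signalling is itself a transcript that rises with it. limma and edgeR called 0, and DESeq2 called 1 higher, beside 0.359% of all genes. limma had 3 higher and 2 lower at an unadjusted p under 0.05 (448 higher and 439 lower of all 14522 genes). The median log2 fold change was 0.07. Egr1, an immediate early transcription factor, had 292.4 and 478.1 normalized counts in knockouts and 198.4 and 98.3 in controls (log2 fold change 1.41, limma adjusted p = 0.664), and it is the gene that DESeq2 called (adjusted p = 0.0135). Ier2, a further immediate early gene, had 88.1 and 102.5 in knockouts and 58.6 and 47.1 in controls (log2 fold change 0.84, SE 0.23, limma adjusted p = 0.671). Among the feedback inhibitors, the ERK phosphatase gene Dusp6 had 271.8 and 261.6 in knockouts and 239.4 and 282.9 in controls, and Spry4 had 206.8 and 260.9 in knockouts and 256.1 and 261.4 in controls. Egr1 and Ier2 were thus higher in both knockouts, while Dusp6 and Spry4 overlapped between the groups. The 2 genes of the list in the lower direction at an unadjusted p under 0.05, named after their values were seen, were Cbl, a ubiquitin ligase that removes activated receptors, and Etv1, a transcription factor. Cbl had 527.2 and 552.3 in knockouts and 770.1 and 665.5 in controls (log2 fold change -0.41, limma adjusted p = 0.680), and Etv1 had 110.4 and 87.2 in knockouts and 131.0 and 281.6 in controls (log2 fold change -0.96, limma adjusted p = 0.798).

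GDF15 is made as a precursor that proprotein convertases cleave, and FGF21 is inactivated in the blood by the protease FAP. Of 6 genes for processing and clearance 6 were tested, limma and edgeR called 0, and the median log2 fold change was -0.12. At an unadjusted p under 0.05 limma had 1 of them lower, beside 439 of all 14522 genes. Pcsk6, a secreted convertase, had 509.9 and 608.2 normalized counts in knockouts and 944.1 and 870.3 in controls. Both knockouts were lower, at a log2 fold change of -0.70 (SE 0.13), which limma did not call (adjusted p = 0.328) and DESeq2 did (adjusted p = 0.0063). Over all genes DESeq2 called 19 lower. Pcsk7 had 198.5 and 259.3 in knockouts and 208.2 and 163.0 in controls, which overlap (log2 fold change 0.30, limma adjusted p = 0.882). Furin, the ubiquitous convertase, had 750.5 and 722.9 in knockouts and 779.9 and 811.0 in controls.

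The list of transcriptional regulators of the hormone genes held 14 genes, all tested. limma called 2 higher and 0 lower, the median log2 fold change was 0.46, and 11 were positive. Of all genes tested, limma called 0.0757% higher and 50.5% were positive. The list was chosen with earlier results of these data known, so its counts are no independent test. edgeR also called 2 (0.0895% of all genes), and DESeq2 called 5 (0.359%), among them Egr1, which stands in this list too. limma's count of 2 fell to 0 when the trend, control replicate 2 or either of the knockouts was left out, and to 1 with no filter or with equal nuclear totals, and it was 3 with a filter of at least 50, with the replicate block and with robust fitting. Both genes that limma called code for factors of the integrated stress response. Atf5, a transcription factor itself induced by ATF4, rose to 742.2 and 596.7 normalized counts in knockouts, against 186.7 and 153.6 in controls (log2 fold change 1.97, SE 0.17, limma adjusted p = 0.0255). Trib3, a pseudokinase that dampens ATF4 and CHOP, rose to 152.4 and 202.0 in knockouts, against 16.6 and 25.6 in controls (log2 fold change 3.03, SE 0.30, limma adjusted p = 0.0401). Atf4 itself, named here after its values were seen, had 1007 and 1192 in knockouts and 513.1 and 455.4 in controls (log2 fold change 1.18, limma adjusted p = 0.0602), so that it was higher in both knockouts and missed limma's threshold, and DESeq2 called it (adjusted p = 1.28e-09). Ddit3, the gene of CHOP, had a log2 fold change of 0.77 (limma adjusted p = 0.704). Atf6 had 2417 and 2518 in knockouts and 1744 and 1790 in controls (log2 fold change 0.48, limma adjusted p = 0.318), and DESeq2 called it (adjusted p = 0.00691). Atf3, Nupr1 and Cebpb of the same list had log2 fold changes of 0.47, 0.44 and 0.08 (limma adjusted p = 0.909, 0.878 and 0.984). Atf3 and Cebpb overlapped between the groups. The promoter windows of Atf5 and Trib3 held no match to the C/EBP-ATF letters.

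**Figure D2:**
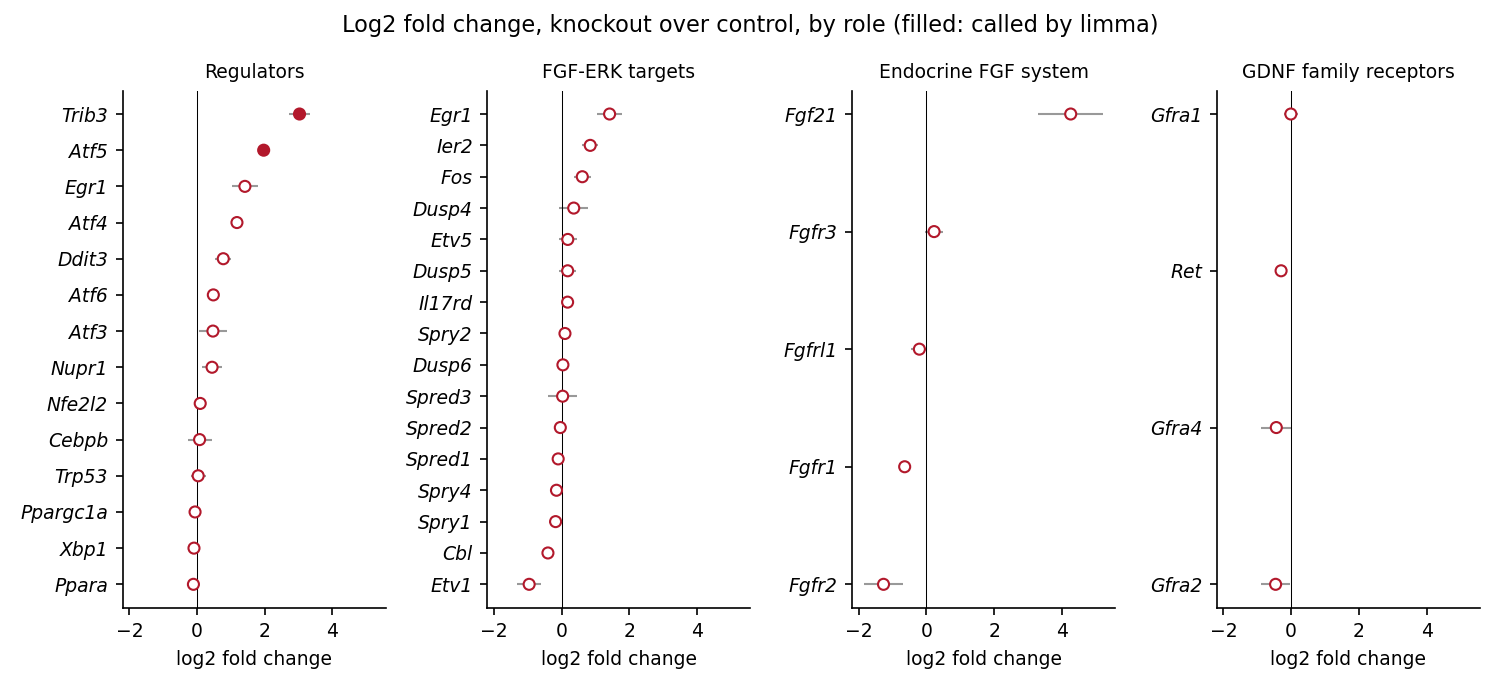
Log2 fold changes of knockouts over controls with standard errors (x axis) for the tested genes of 4 lists (y axis, 1 row for each gene), in panels by role; filled points passed limma's threshold. Trib3 (3.03) and Atf5 (1.97) are the filled points, and Fgf21 (4.26) lies farthest right with an open one.

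The genes whose pattern over the 4 libraries was most like those of the hormones were found as the smallest root mean square difference of log2(normalized count + 1) after each gene was centred on its own mean. For Gdf15 these included Plac9b (0.347), Fgf21 (0.372), Gm20708 (0.450) and Mthfd2 (0.468), against a median of 2.32 over all genes. For Fgf21 they included Mthfd2 (0.112), Gm20708 (0.132), Plac9b (0.208) and Phgdh (0.274), against a median of 2.14. Plac9b, Gm20708 and Mthfd2 were thus near to both hormone genes, and Fgf21 was among the profiles nearest to Gdf15. Over 4 libraries such nearness mostly restates a log2 fold change of similar size, from 3.76 to 4.68 in the genes named. Fgf21, Plac9b and Gm20708, like Gdf15, also passed the filter only through the knockouts, so their nearness to each other was partly set in advance.

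Mthfd2, the mitochondrial enzyme of folate metabolism, rose to 412.7 and 429.9 normalized counts in knockouts, against 25.4 and 22.9 in controls (log2 fold change 4.07, SE 0.18, limma adjusted p = 0.00148). Phgdh, which starts the synthesis of serine from glycolysis, rose to 208.4 and 185.1 in knockouts, against 13.7 and 13.5 in controls (log2 fold change 3.76, SE 0.24, limma adjusted p = 0.0075). Plac9b had 23.9 and 25.2 in knockouts and 0 and 0 in controls, and Gm20708 had 17.3 and 15.3 in knockouts and 0 and 0 in controls. Plac9b has a near-identical copy in the mouse genome and Gm20708 overlaps another gene, so the reads assigned to both are uncertain.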

How the data were processed

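Stranded TruSeq libraries were made from total RNA of whole hearts. The authors deposited a signal, normalized counts for each gene, made with STAR 2.7.3a on GRCm38.p6, Salmon 1.1.0 on GENCODE, and DESeq2 1.26.0 size factors. All deposited values (100%) were whole multiples of the value of 1 read within a tolerance of 0.001, so reads were recovered. A further table of the authors' comparison (fold changes, p-values) was not used. In R 4.3.3, log2(normalized count + 1) was tested two-sided with limma 3.58.1 and a trend of variance on mean, over 14522 genes with at least 10 in 2 of the 4 libraries, with Benjamini-Hochberg adjustment at 0.05. edgeR 4.0.16 and DESeq2 1.42.0 on recovered reads, pseudocounts, filters, scaling, a replicate block, a fit without trend, robust fitting and leaving out each library were alternatives. The fits were also run on simulated counts with known changes. Only well-counted genes were given a change, so that run does not cover genes with almost no control reads, such as Gdf15 and Fgf21. Positions and exon lengths come from GENCODE on GRCm38, and the nearest profiles from 4 libraries.

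Members and gene lists were chosen with earlier results of these data known. Named genes were the members, the genes of each list called by limma or otherwise the 2 with the smallest p, and the 5 nearest profiles of each hormone gene, of which 1 is not reported here. The other genes named were chosen after their values were seen. Mice 585H and 586H, with 2 technical runs each combined by the authors, have titles and genotype fields that contradict each other, and were left out of every comparison. The labels number replicates in each group, but no source says that a number marks a shared litter or day. Counting precision is given as exact 95% intervals, and figures were drawn with matplotlib 3.10.9.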

Additional observations from a re-analysis of the deposited data

Results flagged for a closer look

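Reads of 3 of the genes appeared in the libraries that no comparison used, above the level of both controls. In the library of mouse 585H, Gdf15 had 112.8 normalized counts, against 54.4 and 74.2 in the knockouts and 0.977 and 2.69 in the controls. Fgf21 had 21.9 there, against 17.3 and 19.1 in the knockouts and 0 and 0 in the controls. In the library of mouse 586H, Fgfr4 had 16.3 normalized counts, from 12 reads, against 0.824 and 0 in the knockouts and 1.96 and 0 in the controls. The titles give WT for 585H and KO for 586H, while the genotype fields give Ssbp1-/- for 585H and Ssbp1+/+ for 586H. Title and genotype field thus contradict each other for both mice. Neither library therefore stands for a group, and no difference was tested.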

How the results depend on the processing

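The directions of Gdf15, Fgf21 and Fgfr1 held under every alternative that gave a value. In each of these genes both knockouts lay on the same side of both controls, so most alternatives could not have reversed a direction. Gdf15 (log2 fold change 4.58) passed the threshold with the replicate block (4.58, limma adjusted p = 0.0238), with edgeR (5.14, adjusted p = 0.0433) and with DESeq2 (5.22, adjusted p = 0.00012), and its adjusted p over all alternatives ran from 0.00012 to 1. Fgf21 passed it in limma without a trend (4.26, adjusted p = 0.0308), where its controls at 0 show no spread. It was not tested with a filter of at least 50. Across fits with 1 library left out, where a lone library is assumed to vary like the other group, Gdf15 ran from 4.13 to 5.03, Fgf21 from 4.19 to 4.33 and Fgfr1 from -0.84 to -0.44. Without control replicate 1 Gdf15 was called (adjusted p = 0.0467). Without a knockout the hormone genes passed the filter only when the genes of all 4 libraries were kept, an alternative chosen after seeing the data.

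The count of genes called higher was 11, and 17 with a filter of at least 50, 23 with the replicate block, 6 without a trend and 44 with DESeq2. It was 21 without control replicate 1, 6 without control replicate 2, and 1 without either knockout. The count called lower was 6, and 0 without a trend and 19 with DESeq2, and with 1 library left out it ran from 4 to 12, with the highest count without control replicate 1. Counts within the 9 lists changed in 18 of 252 recomputations, in 15 by more than 1.5 times, 9 upward and 6 downward. All 6 downward moves were in the list of transcriptional regulators. Same-numbered replicates deviated together with a correlation of 0.314 over genes, but 2 pairs cannot establish pairing, so the block is given only here. Equal nuclear totals shifted the median of all genes by 0.014. With 2 hearts a group and control reads of 0 to 2, depth limits every fold of the hormone genes.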

Other observations

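A list of 34 genes for the TGF-beta superfamily, the family of GDF15, held its ligands and also Bmp1, which encodes a protease and not a ligand. Of the list 15 were tested, Bmp1 among them, and limma called 0. At an unadjusted p under 0.05 limma had 2 higher and 0 lower, beside 448 higher and 439 lower of all 14522 genes. edgeR and DESeq2 called 1, Gdf15, beside 0.0895% and 0.359% of all genes called higher. The median log2 fold change of the list was 0.07. After Gdf15 the smallest p belonged to Tgfb2, with 103.8 and 139.2 normalized counts in knockouts and 85.0 and 53.9 in controls (log2 fold change 0.82, SE 0.29, limma adjusted p = 0.788). Of 18 paracrine and endocrine FGF ligands 6 were tested and limma, edgeR and DESeq2 called 0 (1 higher and 1 lower at an unadjusted p under 0.05 in limma), with a median of -0.17. After Fgf21 the smallest p belonged to Fgf1, a ligand of all FGF receptors, with 1855 and 1818 normalized counts in knockouts and 2264 and 2382 in controls, lower in both knockouts (log2 fold change -0.34, SE 0.08, limma adjusted p = 0.625). Per length, Fgf1 was at 38.4 and 38.6 reads per kb of exon and per 1000000 nuclear reads in knockouts and 47.2 and 49.3 in controls, above Fgf21 in every heart.

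Of 22 other secreted stress factors and cardiokines 18 were tested and limma, edgeR and DESeq2 called 0, with a median log2 fold change of -0.04. At an unadjusted p under 0.05 limma had 2 higher and 0 lower, beside 448 higher and 439 lower of all 14522 genes. Stc2, a glycoprotein of the stanniocalcin family, had 215.0 and 222.6 normalized counts in knockouts and 124.1 and 137.4 in controls (log2 fold change 0.74, limma adjusted p = 0.499). Angptl6, an angiopoietin-like factor, had 34.6 and 25.2 in knockouts and 8.80 and 10.8 in controls (log2 fold change 1.51, limma adjusted p = 0.680). Adm2, a peptide of the calcitonin family, was under the filter, with 6.59 and 3.83 in knockouts and 0 and 0 in controls.

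In the libraries in no group, the remaining values were as follows. Mouse 585H had 309.5 normalized counts of Fgfr1, 0.874 of Klb, 2.62 of Fgfr4 and 0 of Gfral. Mouse 586H had 287.4 of Fgfr1 and 0 of Gdf15, Fgf21, Klb and Gfral.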
